A study of Mus musculus with 24 samples.

Results

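Of the 24447 genes in the count matrix, 7 are described here, the genes through which T cells meet extracellular NAD and ATP. They are Art2a-ps, Art2b, P2rx7, Entpd1, Nt5e, Adora2a and Cd38, taken by symbol over all cells. The list was drawn up because Art2a-ps was nearly absent from CD1d-deficient cells, because Adora2a stood out in Jα18-deficient cells, and because P2rx7 acts together with ART2. The levels by genotype therefore chose the list, and they are given as a description with no test.

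The cells were liver NK1.1+CD3e+ cells, sorted as NKT cells and picked by hand from mice of 8 to 10 weeks. The methods name the strain C57BL/6 for the WT mice only. WT mice were bought from a supplier, and Jα18-deficient mice (without NKT cells of type I) and CD1d-deficient mice (without those of type I and type II) came from another laboratory, so genotype and source of the mice cannot be told apart. The labels give 8 libraries for each of the 3 genotypes, 24 in all, but the cell names carry no library number. Each genotype was therefore 1 pool, of 623 WT, 725 Jα18-deficient and 387 CD1d-deficient cells, and no spread between mice or libraries could be computed. Every interval given for a pool covers counting error only, at the 95% level, and takes each UMI as independent, so it is too narrow where few cells hold most UMIs of a gene.

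The count is of unique molecular identifiers (UMIs), each standing for 1 captured transcript, and a level is given as UMIs per 1000000 UMIs of the pool (CPM). The pools held 34102694, 60484252 and 14536585 UMIs, with medians of 40467, 46670 and 13508 UMIs a cell for WT, Jα18-deficient and CD1d-deficient cells. Cd1d1, the targeted CD1d gene, had 854 UMIs in WT, 934 in Jα18-deficient and 0 in CD1d-deficient cells, where 0 allows a level of up to 0.206 CPM; Traj18 was not analysed here. UMIs of Klrb1c, which encodes NK1.1, were in 92.0% to 95.6% of cells and UMIs of Cd3e in 74.9% to 96.7%. The CD1d-deficient pool also held most myeloid transcripts, with 617 CPM over the 8 myeloid markers present in the matrix against 88.9 in WT and 25.2 in Jα18-deficient cells. None of these 8 was at 0 in any pool, and Lyz2 alone gave 588 CPM in CD1d-deficient cells.

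ART2 enzymes sit on the T cell surface and use NAD released outside the cell to attach ADP-ribose to other surface proteins. One of these is P2X7, the ion channel encoded by P2rx7, which ATP opens and which ADP-ribosylation can also open, and its opening can kill the T cell. CD38, encoded by Cd38, degrades the same NAD. CD39 (Entpd1) removes phosphates from ATP down to AMP, CD73 (Nt5e) turns AMP into adenosine, and the receptor encoded by Adora2a senses adenosine and dampens T cell activation. NKT cells of mouse liver are known for their sensitivity to P2X7.

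Art2a-ps and Art2b are neighbours on chromosome 7. In the GENCODE annotation of NCBIM37 (mm9), Art2a-ps, a polymorphic pseudogene, occupies chr7:108700967-108709379 and Art2b, a protein-coding gene, chr7:108727374-108729675, both on the minus strand and 17994 bases apart. Their coding sequences were 87.9% identical over 856 aligned bases, with 104 mismatches and a longest identical run of 125 bases. The Art2a-ps model of 286 codons held 1 in-frame stop, at codon 161, whereas Art2b ran for 289 codons before its stop. The stop arose from the substitution C481T, the Art2b base first, counted from the first coding base, which turns the codon cga of Art2b into tga. The coding bases around the stop, 5′ to 3′ on the coding strand (chr7:108703331-108703393 for Art2a-ps and chr7:108728692-108728754 for Art2b), show where the genes can be told apart, and capitals mark the 14 bases that differ.
Art2a-ps: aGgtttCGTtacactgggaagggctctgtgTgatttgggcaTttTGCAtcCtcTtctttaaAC
Art2b: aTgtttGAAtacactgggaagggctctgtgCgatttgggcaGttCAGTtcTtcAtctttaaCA

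The next stretch shows the opposite case, 60 coding bases with no difference between the genes (chr7:108703691-108703750 and chr7:108729052-108729111), where a read fits both.
Art2a-ps and Art2b: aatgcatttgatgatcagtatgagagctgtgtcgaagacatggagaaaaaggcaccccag

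How reads that fit both genes were counted is not given in the sources used here, so the split between Art2a-ps and Art2b is uncertain, more so than their sum. In the same annotation Art2a-ps has 399 UTR bases and Art2b none.

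P2rx7 lies at chr5:123093920-123141441, Adora2a at chr10:74779688-74797533, Nt5e at chr9:88222447-88266927, Entpd1 at chr19:40686856-40816092 and Cd38 at chr5:44260048-44303614, all on the plus strand. Entpd1 overlaps the pseudogenes Gm16027 and Gm8783, and Cd38 overlaps the noncoding transcripts Gm16014 and, on the other strand, Gm16015. Whether the counting used strand is not given in the sources used here.

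The ADP-ribosyltransferase transcripts were most abundant in WT cells and least abundant in CD1d-deficient cells. Art2a-ps had 2052 UMIs in WT, 947 in Jα18-deficient and 26 in CD1d-deficient cells, that is, levels of 60.2 (57.6 to 62.8), 15.7 (14.7 to 16.7) and 1.79 CPM (1.17 to 2.62). The level in WT cells was 3.84 times that in Jα18-deficient cells and 33.6 times (22.9 to 51.6) that in CD1d-deficient cells. Among cells with 0, 1 to 9 and 10 or more UMIs of the myeloid markers, Art2a-ps was at 88.0, 49.4 and 17.4 CPM in WT and at 4.87, 3.22 and 1.42 CPM in CD1d-deficient cells. The WT level was thus 18.1 times (4.996 to 149), 15.3 times (7.36 to 38.5) and 12.3 times (7.44 to 21.5) the CD1d-deficient level within these groups of cells, smaller than over all cells. The part of myeloid transcripts in the difference was not tested further. Art2b, the intact neighbour, followed the same order over a narrower range, with 25.2 CPM (860 UMIs), 16.6 CPM (1005 UMIs) and 13.8 CPM (200 UMIs). The difference of Art2b between WT and CD1d-deficient cells was 1.83-fold (1.57 to 2.15), and 3.27-fold without the 5 top cells of each pool (19.6 against 5.98 CPM). Art2a-ps thus made up 70.5% (68.8 to 72.1) of the UMIs of both genes in WT, 48.5% (46.3 to 50.8) in Jα18-deficient and 11.5% (7.65 to 16.4) in CD1d-deficient cells, by exact binomial intervals. These shares compare pools, not the 2 genes, whose annotated exon lengths are 1257 and 870 bases.

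**Figure D1:**
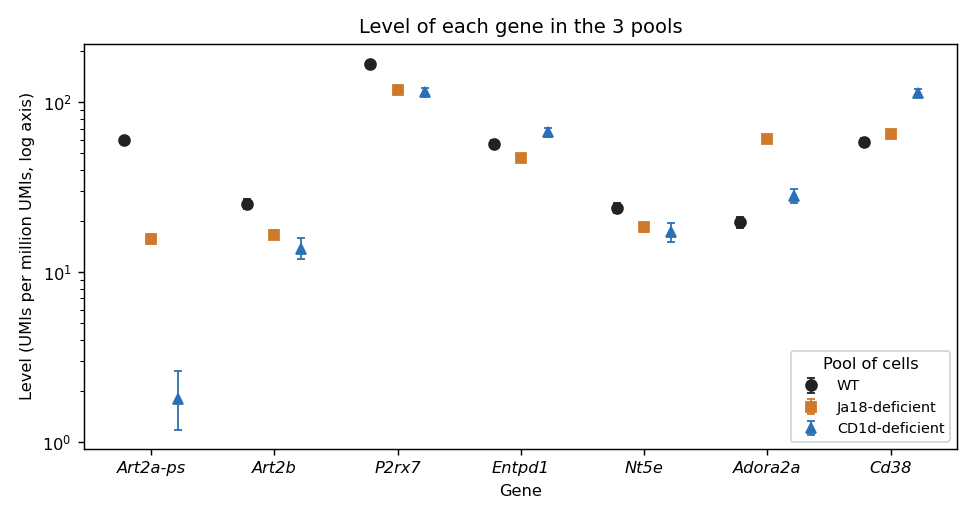
Level of each of the 7 genes (x axis) in CPM (y axis, log scale) in the WT (circles), Jα18-deficient (squares) and CD1d-deficient (triangles) pools, with exact Poisson intervals for counting error. Art2a-ps drops from 60.2 in WT to 1.79 in CD1d-deficient cells, whereas Adora2a stands highest in Jα18-deficient cells at 61.0.

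P2rx7, the channel that ART2 modifies, was at 167 CPM in WT (5711 UMIs), 119 CPM in Jα18-deficient (7195 UMIs) and 116 CPM in CD1d-deficient cells (1682 UMIs). The WT level was 1.41 and 1.45 times those of the deficient pools, and the ratio of the deficient pools to each other was 0.973, with a counting interval from 0.922 to 1.03. Without the 5 top cells of each pool P2rx7 was at 152, 88.7 and 69.9 CPM, and the WT level was 2.17 times that of CD1d-deficient cells. Adora2a, the adenosine receptor, showed another order, with 19.7 CPM in WT (671 UMIs), 61.0 CPM in Jα18-deficient (3689 UMIs) and 28.1 CPM in CD1d-deficient cells (408 UMIs). Its level in Jα18-deficient cells was 3.10 times (2.85 to 3.37) the WT level and 2.17 times (1.96 to 2.41) the level in CD1d-deficient cells.

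Of the ectonucleotidases, Nt5e was at 24.0, 18.4 and 17.2 CPM in WT, Jα18-deficient and CD1d-deficient cells (817, 1113 and 250 UMIs), and the levels of the deficient pools did not differ beyond counting error (ratio 0.935, interval 0.812 to 1.07). This rested on few cells, since 5 cells held 67.6% of the Nt5e UMIs of CD1d-deficient cells. Without the 5 top cells of each pool the levels of Nt5e were 15.2, 9.71 and 5.84 CPM, a ratio of 0.601 between the deficient pools. Entpd1 was at 57.1, 47.1 and 66.7 CPM (1947, 2847 and 969 UMIs). In CD1d-deficient cells 1 cell held 21.1% of the Entpd1 UMIs, and without the top cell of each pool the order of WT and CD1d-deficient cells turned over, to 54.9 against 53.1 CPM. Cd38, the NAD-degrading enzyme, was at 58.7, 65.2 and 114 CPM (2003, 3943 and 1658 UMIs), and CD1d-deficient cells held 1.94 times (1.82 to 2.07) the WT level.

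The Cd38 level was set beside the myeloid transcripts, since CD38 is also a protein of myeloid cells. Over cells with 0, 1 to 9 and 10 or more UMIs of the myeloid markers, Cd38 was at 117, 82.4 and 120 CPM in CD1d-deficient cells (71, 148 and 168 cells). The WT levels were 44.4, 105 and 55.4 CPM (366, 156 and 101 cells), so the CD1d-deficient level was the higher one in the first and last of these groups and the lower one among cells with 1 to 9. In Jα18-deficient cells the levels were 53.0, 67.3 and 97.7 CPM. The 71 CD1d-deficient cells without a myeloid UMI held 48 UMIs of Cd38 and had a median depth of 5742 UMIs, against 36994 in WT. The part of myeloid transcripts in the Cd38 difference was not tested.

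The differences between pools were set beside those of all genes by a limit of 2-fold. This does not say how rare a larger difference is. Among genes with at least 100 UMIs in a pair of pools, 14% were at least 2-fold higher and 7.14% at least 2-fold lower in Jα18-deficient than in WT cells. Of the 7 genes, 1 was higher by that measure (Adora2a) and 1 lower (Art2a-ps). Between CD1d-deficient and WT cells 12.2% of genes were 2-fold higher and 12.3% lower, and 1 of the 7, Art2a-ps, was lower and none higher. Between CD1d-deficient and Jα18-deficient cells 9.58% were higher and 17.8% lower, with Art2a-ps and Adora2a lower and none of the 7 higher. The median log2 ratio over all such genes was 0.13, 0.01 and -0.12 in the 3 comparisons. Cd38, at 1.94-fold, and Art2b, at 1.83-fold lower, both between CD1d-deficient and WT cells, came nearest to the limit without passing it over all cells. Since the list was drawn up from these contrasts, nothing is read from the counts.

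The shares of cells with a UMI were compared at equal depth, with each cell thinned at random to 10000 UMIs and the 353 shallower cells left out (100 WT, 93 Jα18-deficient, 160 CD1d-deficient). Art2a-ps was then found in 14.1% (11.3 to 17.4) of 523 WT cells, 5.38% (3.75 to 7.44) of 632 Jα18-deficient cells and 2.64% (0.976 to 5.66) of 227 CD1d-deficient cells. Without thinning these shares were 24.9%, 13.1% and 3.36%. Art2b was found in 14.7%, 7.91% and 7.49% of the thinned cells, with an interval of 4.42 to 11.7 in CD1d-deficient cells that overlaps that of Art2a-ps. Adora2a was found in 10.7% (8.19 to 13.7), 19.0% (16.0 to 22.3) and 10.6% (6.89 to 15.3), against 18.3%, 34.9% and 19.6% without thinning. P2rx7 had the largest shares of the 7 genes in WT cells, at 49.1%, 29.6% and 27.3% for the 3 pools. The shares of Nt5e were 10.3%, 6.96% and 6.17%, those of Entpd1 17.4%, 16.6% and 22.03%, and those of Cd38 20.7%, 21.0% and 29.96%.

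**Figure D2:**
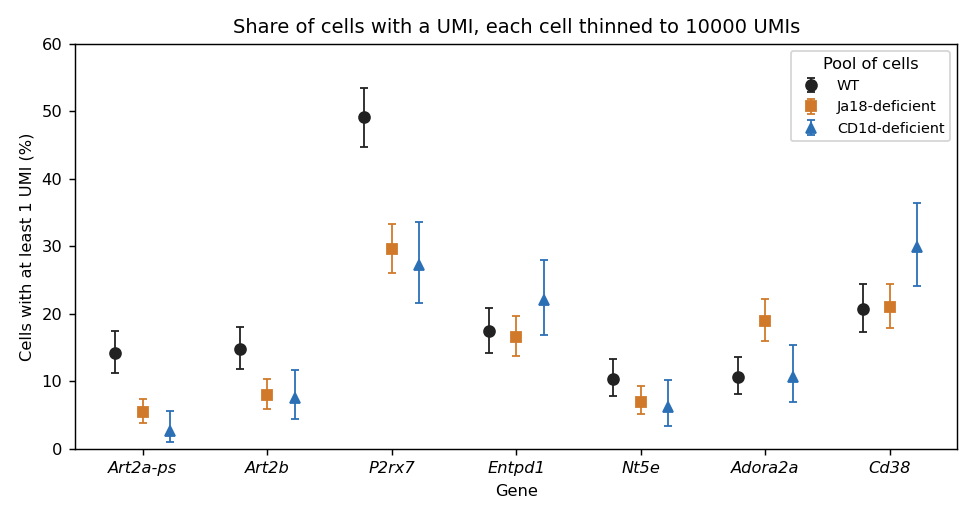
Share of cells with at least 1 UMI of each gene (y axis, percent; genes on the x axis) after each cell was thinned to 10000 UMIs, in the 3 pools, with exact binomial intervals for counting error. P2rx7 is found in 49.1% of WT cells and in 27.3% of CD1d-deficient cells, and only Adora2a has its largest share in Jα18-deficient cells.

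The UMIs of each gene came from few cells, which sets how far a pool's level speaks for its cells. For Art2a-ps, 7 of the WT cells, 6 Jα18-deficient cells and 4 CD1d-deficient cells held 50 percent of the pool's UMIs. The WT cell with most Art2a-ps held 303 UMIs, 14.8% of the pool, whereas no CD1d-deficient cell held more than 4. Without the 5 top cells of each pool the levels of Art2a-ps were 33.1, 8.21 and 0.632 CPM, in the same order. P2rx7 was spread more widely in WT, where 40 cells held that share of UMIs, than in Jα18-deficient (18 cells) and CD1d-deficient cells (7 cells). For Adora2a the numbers were 16, 16 and 9 cells, and its levels without the 5 top cells were 14.9, 48.9 and 18.7 CPM.

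**Figure D3:**
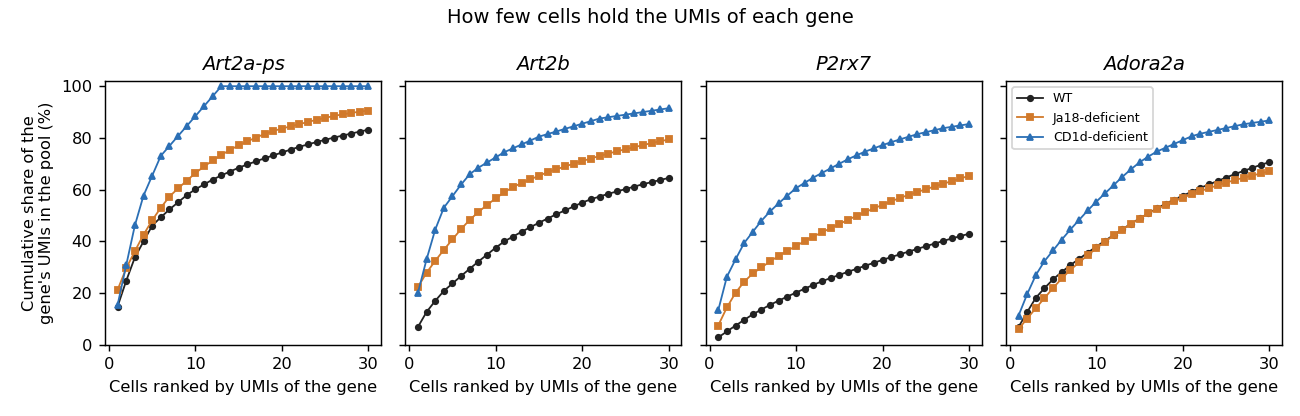
Cumulative share of the UMIs of Art2a-ps, Art2b, P2rx7 and Adora2a (y axis, percent of the pool) over the 30 cells that hold most of them (x axis, rank), in WT (circles), Jα18-deficient (squares) and CD1d-deficient cells (triangles). The 5 top cells hold 46.1% of Art2a-ps UMIs in WT, and 11.8% of those of P2rx7.

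Most cells with a UMI of Art2a-ps or Art2b held only 1 of the 2 genes at this depth. Each gene was found in few cells (24.9% of WT cells each), so this does not show that the genes are kept apart. Without thinning, 44 WT cells held UMIs of both genes, 111 of Art2a-ps alone and 111 of Art2b alone. In Jα18-deficient cells these numbers were 26, 69 and 106, and in CD1d-deficient cells 2, 11 and 45. In thinned WT cells Art2b was found in 16 of the 74 cells with Art2a-ps (21.6%, 12.9 to 32.7) and in 61 of the 449 without it (13.6%, 10.6 to 17.1), and these intervals overlap. The 9 CD1d-deficient cells with 5 or more Art2 UMIs held 141 UMIs of Art2b and 1 of Art2a-ps. The 92 such WT cells held 703 and 1910. No CD1d-deficient cell held more than 4 UMIs of Art2a-ps, so none could pass this gate by Art2a-ps alone. Nothing is therefore read from this split.

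The other genes measured near the Art2 genes were listed as context. Within 500000 bases, 17 other genes are in the matrix and 8 had at least 100 UMIs in the WT and CD1d-deficient pools together. Their ratios of CD1d-deficient to WT level ran from 0.292 (Il18bp) to 3.65 (Rnf121) with a median of 0.703. Of the 8, 3 were at least 2-fold lower and 1 at least 2-fold higher, where 12.3% and 12.2% of all genes were. Art2a-ps, at 0.0297, was chosen for its low level, so its distance from these genes is no test.

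To compare the genes within a genotype, cells were put in classes by genes that are not among the 7. Cd8a+ cells had a UMI of Cd8a and none of Cd4, and Cd4+ cells the reverse. Cells with neither (double negative) were split by a UMI of any of 18 Ly49 receptor genes (Klra genes). Cells with UMIs of both Cd8a and Cd4 (34 WT, 71 Jα18-deficient and 3 CD1d-deficient cells) were in none of these classes. Double negative Ly49- cells were the shallowest in each pool, with medians of 20340, 15821.5 and 5956.5 UMIs in WT, Jα18-deficient and CD1d-deficient cells. The medians were 52404, 62901 and 23353 in Cd8a+ cells and 58809.5, 44099 and 6694 in Cd4+ cells. A cell without a UMI of a gating gene is thus not shown to lack its transcript. These classes did not enter the choice of the list, and UMIs summed by pool and class were compared with the double negative Ly49- cells by edgeR's quasi-likelihood test, with the 3 pools as replicates. The replicates are therefore pools of different genotypes, and the p-values measure how far a difference between classes recurred across genotypes.

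In WT cells Art2a-ps was highest in the Cd4+ class, at 81.3 CPM (76.6 to 86.2, 188 cells). It was at 61.1 CPM in double negative Ly49+ cells (145 cells), 35.1 CPM in double negative Ly49- cells (193 cells) and 32.3 CPM in Cd8a+ cells (63 cells). The last 2 did not differ beyond counting error. Without the top cell of each class, which held 303, 205, 46 and 67 UMIs, these levels were 60.01, 36.4, 27.1 and 13.8 CPM. In Jα18-deficient cells the order was another one, with 27.8 CPM in double negative Ly49+ (261 cells), 16.8 in Cd4+ (104 cells), 8.99 in Cd8a+ (253 cells) and only 3 UMIs in double negative Ly49- cells (36 cells). CD1d-deficient cells had 20 UMIs in 231 Cd8a+ cells (1.76 CPM), 3 in 115 double negative Ly49+ cells (1.19 CPM), 2 in 30 double negative Ly49- cells and 1 in 8 Cd4+ cells. Art2a-ps was thus lower in CD1d-deficient than in WT cells in each of the 4 classes by this gate, with WT levels 18.4 times (11.4 to 31.2) higher in Cd8a+ and 51.3 times (17.5 to 250) higher in double negative Ly49+ cells. In the Cd4+ and double negative Ly49- classes this rested on 1 and 2 CD1d-deficient UMIs. The gene was chosen for its near absence from these same cells, so the classes give no independent test.

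The level in the Cd8a+ class depended on the gate, and 1 WT cell held 67 of its 115 UMIs. Counting cells as positive from 2 UMIs left 33 WT Cd8a+ cells with 9 UMIs of Art2a-ps (5.30 CPM, 2.42 to 10.1), and 5 or more UMIs of Cd8a left 26 cells with 2 (1.44 CPM). By that stricter gate Art2a-ps in CD1d-deficient Cd8a+ cells (13 UMIs in 120 cells, 2.33 CPM) was 1.62 times the WT level with an interval from 0.366 to 14.8, so a difference in Cd8a+ cells was not detectable. The Jα18-deficient Cd8a+ cells, lower than WT at 1 UMI (ratio 0.278), were then higher (4.04, 1.06 to 34.3), on 49 against 2 UMIs. In double negative Ly49+ cells the stricter gate gave 57.6 CPM for WT (53 cells), 27.1 CPM for Jα18-deficient (148 cells) and 0.583 CPM, from 1 UMI, for CD1d-deficient mice (74 cells). At the gate of 2 UMIs these 3 levels were 29.6, 22.5 and 0.736 CPM. Cells with 1 UMI of a gating gene then count as double negative, and Art2a-ps in WT double negative Ly49- cells went from 35.1 to 73.2 CPM. Art2b differed much less between the same cells, with 17.1, 14.3 and 22.2 CPM in double negative Ly49+ cells at 1 UMI.

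The Jα18-deficient level of Adora2a exceeded the WT level in all 4 classes, which leave out cells with UMIs of both Cd8a and Cd4. The whole-pool contrast does not by itself give this. The levels were 61.1 against 17.1 CPM in Cd8a+ cells (ratio 3.56, 2.76 to 4.68), 39.3 against 20.2 CPM in Cd4+ cells (1.94, 1.65 to 2.28), 57.5 against 21.7 CPM in double negative Ly49+ cells (2.65, 2.24 to 3.14) and 34.0 against 18.1 CPM in double negative Ly49- cells (1.88, 1.24 to 2.80). The ratios stayed above 1 with their intervals at the gates of 2 UMIs and of 5 UMIs. For double negative Ly49- cells the gate of 5 UMIs was no check. These cells still held no UMI of any gating gene, so their ratio could not change. The same cells set these ratios and the choice of the gene, so they are no independent test. CD1d-deficient cells had no one place in this order. They were at 29.5 CPM in Cd8a+ and 27.4 CPM in double negative Ly49+ cells, but at 6.36 CPM (3 UMIs) in double negative Ly49- cells, and at 5.57 CPM (2.24 to 11.5) there by the gate of 2 UMIs, below the 19.7 CPM (17.4 to 22.2) of WT. Among cells with 0, 1 to 9 and 10 or more myeloid UMIs, Adora2a was at 17.0, 18.0 and 30.3 CPM in CD1d-deficient and at 28.3, 19.97 and 4.18 CPM in WT cells. The level in double negative Ly49+ cells did not differ from WT beyond counting error by the 1 UMI gate (ratio 1.26, 0.940 to 1.68). That ratio depended on the gate, at 1.77 (1.38 to 2.29) with 2 UMIs and 0.635 (0.406 to 0.974) with 5.

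**Figure D4:**
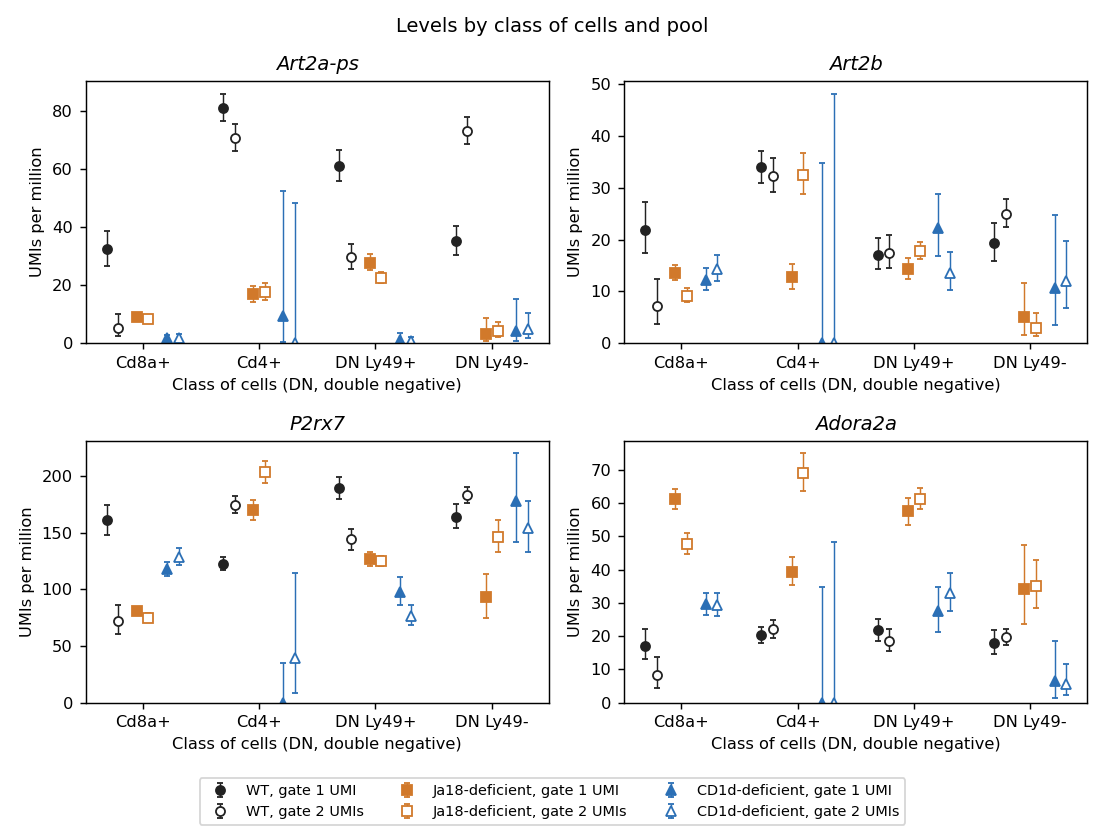
Levels of Art2a-ps, Art2b, P2rx7 and Adora2a in CPM (y axes, from 0) in 4 classes of cells (x axes) and 3 pools, with classes set at 1 UMI (filled) or 2 UMIs (open) of the gating genes and exact Poisson intervals. Art2a-ps in WT Cd8a+ cells goes from 32.3 to 5.30 with the gate, and Jα18-deficient squares stand above WT circles for Adora2a in each class.

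None of the 7 genes passed the test in any of the 3 comparisons of classes. At an adjusted p under 0.05, 0.236% of 10157 genes were called higher and 0.0394% lower in Cd8a+ cells, 0.0591% and 0% in Cd4+ cells, and 0.118% and 0% in double negative Ly49+ cells. Among the 7, the lowest adjusted p was 0.88 for Cd8a+, 0.81 for Cd4+ and 0.98 for double negative Ly49+ cells (edgeR, Benjamini-Hochberg over all genes), and none had an unadjusted p under 0.05. By DESeq2 none was called either, with 1 unadjusted p under 0.05, in Cd4+ cells. The median log2 difference of the 7 was 0.09, 0.19 and 0.55 in Cd8a+, Cd4+ and double negative Ly49+ cells, against 0.12, -0.04 and 0.12 over all genes tested. The intervals were wide: Art2a-ps differed by 1.33 (SE 1.01, interval -0.73 to 3.397) on the log2 scale in Cd4+ cells, by 1.03 (SE 0.96, -0.93 to 2.99) in double negative Ly49+ cells and by 0.03 (SE 0.96, -1.93 to 1.98) in Cd8a+ cells. Adora2a differed by 0.84 (SE 0.81) in Cd8a+, 0.11 (SE 0.81) in Cd4+ and 0.86 (SE 0.80) in double negative Ly49+ cells. Nt5e had the lowest estimates of the 7 genes, at -1.34 (SE 0.92) in Cd8a+, -1.35 (SE 0.96) in Cd4+ and -0.85 (SE 0.93) in double negative Ly49+ cells. Cd38 had an estimate of 1.25 (SE 0.62, adjusted p 0.81) in Cd4+ cells, but 50 UMIs of 1 CD1d-deficient cell carried the class of that pool, at 471 CPM, and the estimate was 0.26 without the pool.

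S1pr1, the receptor by which lymphocytes leave tissue into the circulation, split the cells in a further comparison. Cells with a UMI of S1pr1 numbered 37 in WT, 113 in Jα18-deficient and 38 in CD1d-deficient mice. They were deeper than S1pr1- cells, with medians of 57516 against 40081.5 UMIs in WT. In Jα18-deficient cells the medians were 84504 against 40852.5, and in CD1d-deficient cells 32616 against 12923. None of the 7 genes passed edgeR's test (lowest adjusted p 0.97) or DESeq2, and none had an unadjusted p under 0.05 by either, where 0.0198% of 10095 genes were called higher and 0% lower in S1pr1+ cells. P2rx7 was at 121 CPM in S1pr1+ against 171 CPM in S1pr1- cells in WT, 126 against 116 CPM in Jα18-deficient and 94.1 against 119 CPM in CD1d-deficient mice, a log2 difference of -0.11 (SE 0.28, interval -0.72 to 0.51). With S1pr1+ set at 5 or more UMIs, the levels of P2rx7 in S1pr1+ cells were 115 (20 cells), 28.4 (41 cells) and 7.64 CPM (17 cells), below those of S1pr1- cells in all 3 pools, and the log2 difference became -1.91 (SE 0.59, adjusted p 0.42). With 2 or more UMIs it was -1.48 (adjusted p 0.60), and in thinned cells -0.97 (adjusted p 0.77). The gate of 5 UMIs was chosen after the first values were seen. Under it Cd38 was at 5.39 against 73.7 CPM in Jα18-deficient and 3.27 against 114 CPM in CD1d-deficient cells, but at 81.8 against 57.7 CPM in WT cells. Its log2 difference was -0.04 (SE 0.38) at 1 UMI, -2.23 (adjusted p 0.60) at 2 UMIs, -2.67 (adjusted p 0.55) at 5 and -2.07 (adjusted p 0.39) when thinned. Nt5e differed by 0.54 (SE 0.70, adjusted p 0.97), with 42.2 against 22.7 CPM in WT, 26.1 against 15.8 CPM in Jα18-deficient and 13.2 against 17.7 CPM in CD1d-deficient cells.

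Since ART2 acts on P2X7 in the same membrane, the genes were also compared between cells with a UMI of Art2a-ps or Art2b (Art2+, 266 WT, 201 Jα18-deficient and 58 CD1d-deficient cells) and cells with neither. The gate is of transcripts and does not show the enzyme, since the annotated Art2a-ps holds an in-frame stop. Of the 266 WT cells, 111 held Art2a-ps alone. P2rx7 was higher in Art2+ cells in each pool, at 182 against 153 CPM in WT, 159 against 87.6 CPM in Jα18-deficient and 205 against 82.0 CPM in CD1d-deficient cells. The log2 difference was 0.87 (SE 0.24, interval 0.34 to 1.40), which did not pass the test over all genes (unadjusted p 0.0043, adjusted p 0.97 by edgeR, 0.16 by DESeq2). The 2 gating genes were the only genes called, 0.0192% of 10393 tested. Art2+ cells were deeper, with medians of 54382.5 against 30151 UMIs in WT, 95063 against 36029 in Jα18-deficient and 48416.5 against 11634 in CD1d-deficient cells. In cells thinned to 10000 UMIs the difference was 0.48 (interval -0.02 to 0.99). In thinned WT cells P2rx7 was found in 54.1% (42.1 to 65.7) of cells with Art2a-ps and 48.3% (43.6 to 53.1) without. For Art2b these WT shares were 48.1% and 49.3%. In Jα18-deficient cells they were 29.4% and 29.6% for Art2a-ps and 38.0% and 28.9% for Art2b. In CD1d-deficient cells they were 33.3% and 27.1% for Art2a-ps (6 cells with it) and 41.2% and 26.2% for Art2b (17 cells with it). The intervals with and without overlapped each time. With 5 or more Art2 UMIs the difference was 0.01 (SE 0.47), and the 9 CD1d-deficient cells of that gate held 21.1 CPM of P2rx7. With 2 or more it was 0.14 (SE 0.28).

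The other genes of the group did not share a direction in Art2+ cells. Adora2a was at 27.8 against 11.8 CPM in WT and 70.1 against 54.0 CPM in Jα18-deficient cells, but 23.9 against 29.7 CPM in CD1d-deficient cells (log2 difference 0.50, SE 0.43). Nt5e was at 11.2 against 36.4 CPM in WT, 14.2 against 21.7 CPM in Jα18-deficient and 18.1 against 16.9 CPM in CD1d-deficient cells (-0.68, SE 0.56). Myeloid transcripts also differed by this split in WT, at 53.1 CPM in Art2+ and 124 CPM in Art2- cells. WT Nt5e was at 5.49, 25.0 and 56.2 CPM in cells with 0, 1 to 9 and 10 or more myeloid UMIs. It was at 8.89, 30.95 and 8.82 CPM in Jα18-deficient and at 7.30, 15.2 and 17.9 CPM in CD1d-deficient cells. The part of myeloid transcripts in the Nt5e values was not tested. Entpd1 was at 67.4 against 47.1, 53.1 against 42.4 and 26.4 against 81.9 CPM in the same order of pools (-0.17, SE 0.45), and Cd38 at 52.4 against 64.9, 51.1 against 76.1 and 122 against 111 CPM (-0.19, SE 0.27). The lowest adjusted p of these 5 genes was 0.97.

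**Figure D5:**
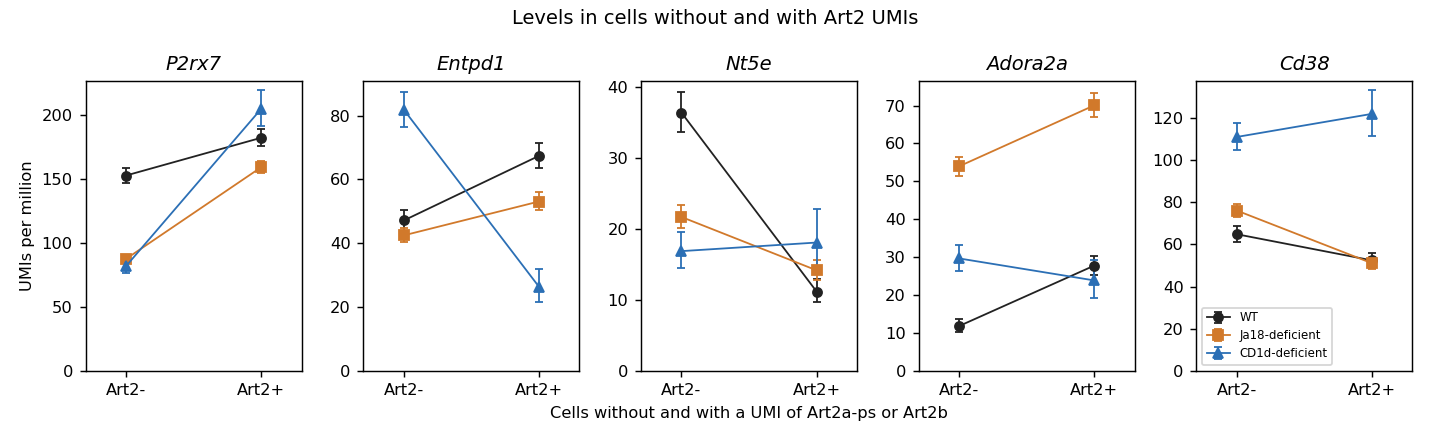
Levels of P2rx7, Entpd1, Nt5e, Adora2a and Cd38 in CPM (y axes, from 0) in cells without (Art2-) and with (Art2+) a UMI of Art2a-ps or Art2b, with exact Poisson intervals, for WT (circles), Jα18-deficient (squares) and CD1d-deficient cells (triangles). P2rx7 slopes upward in all 3 pools, from 82.0 to 205 in CD1d-deficient cells, and Entpd1 slopes upward in WT and downward in CD1d-deficient cells.

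The wider pathway was described from lists of 79 genes for NAD, ATP and adenosine. Of its members other than the 7, 71 are in the matrix. Those with at least 100 UMIs in a pair numbered 43 for Jα18-deficient against WT, of which 4 were 2-fold higher (Adk, Dpp4, Slc29a3 and Macrod1) and 1 lower (Slc29a2). Adk, the kinase that removes adenosine by phosphorylation, was at 17.7 CPM against 5.22, and Dpp4 at 29.4 against 13.2 CPM. Of 41 genes for CD1d-deficient against WT, 4 were higher (Enpp1, Slc29a3, Parp6 and Parp16) and 2 lower (Tnks and Macrod2). Enpp1, an ectoenzyme that hydrolyses ATP, was at 19.3 CPM in CD1d-deficient, 6.13 in WT and 5.84 in Jα18-deficient cells. Of 42 genes for CD1d-deficient against Jα18-deficient, 2 were higher (Enpp1 and Nmnat1) and 6 lower. Over all genes the shares higher and lower were 14% and 7.14%, 12.2% and 12.3%, and 9.58% and 17.8% in these 3 comparisons, and the pathway counts are not above them.

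Some relatives of the 7 genes were hardly found. Adora1, Adora3, Art1 and Art5 had no UMI, Adora2b had 4, 4 and 12 UMIs in the WT, Jα18-deficient and CD1d-deficient pools, and Bst1, the relative of Cd38, had 2, 0 and 3. Among ATP and nucleotide receptors, P2rx4 was at 13.8, 16.7 and 12.5 CPM and P2ry10 at 27.8, 25.1 and 15.1 CPM. Other enzymes were at levels like those of the 7: Enpp4 was at 57.4, 51.8 and 45.0 CPM and Entpd4 at 36.0, 33.7 and 33.02 CPM. Ada, adenosine deaminase, was at 32.8, 24.5 and 26.8 CPM. No pathway gene outside the 7 was called between classes, S1pr1 or Art2 gates, of 43 to 45 tested (lowest adjusted p 0.34, edgeR), with 0 to 6 at an unadjusted p under 0.05, and none by DESeq2. Their median log2 differences lay between -0.20 and 0.11, where those of all genes tested lay between -0.15 and 0.12.

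The genes whose log2 level was most like each of the 7 over the 12 sums of pool and class were found among 8478 genes by Pearson's r. They were Mbtd1 (0.905), Gm5148 (0.892) and Atf7 (0.883) for Art2a-ps, Nup37 (0.896), Vkorc1 (0.887) and Smim11 (0.883) for Art2b, and Gimap8 (0.979), Mettl23 (0.974) and Selenos (0.973) for P2rx7. For Adora2a they were Trim8 (0.9501), Hnrnpu (0.946) and Rasgrp2 (0.918), and for Cd38 Mcfd2 (0.933), Rcor1 (0.922) and Snrpb (0.908). Nt5e was most like Apbb1ip (0.876), Ly6g5b (0.874) and Arfgap1 (0.829), and Entpd1 most like Klhl24 (0.866), Ech1 (0.823) and Bicral (0.823). The sums share pools and differ widely in depth, so these values describe the sums. Mbtd1 was at 18.9, 10.8 and 1.79 CPM in WT, Jα18-deficient and CD1d-deficient cells, the order of Art2a-ps.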

How the data were processed

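Per the labels, liver NK1.1+CD3e+ cells were picked by hand and sequenced, and the submitters' processing notes name Cutadapt 1.15, TopHat 2.0.12, HTSeq 0.10.0, Seurat and the build mm9. The authors deposited 1 table of raw UMI counts, 24447 genes by 1735 cells, already filtered. The methods state a filter of more than 500 genes and 10000 to 600000 transcripts a cell, yet 353 cells hold fewer than 10000 UMIs. All cells were used. The annotation read here was GENCODE vM1 on NCBIM37; the authors' annotation is not given in the sources used here. The 7 genes, the pathway lists and the gates were chosen with earlier results of these data known.

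CPM is UMIs per 1000000 UMIs of a pool or class. Intervals are exact (Poisson, binomial, and conditional binomial for ratios) with Python 3.11.15 and scipy 1.17.1. Sums of at least 3 cells per pool and class were fitted with edgeR 4.0.16 (R 4.3.3; TMM, filterByExpr, glmQLFit, pool and class as terms), checked on simulated data, with adjusted p under 0.05 called. Alternatives were DESeq2 1.42.0, RLE scaling, no filter, no pool term, gates of 2 and of 5 UMIs, thinning to 10000 or 5000 UMIs, each pool left out, and the cells with most UMIs of a gene left out. The genes named were the 7 themselves, pathway genes that passed a test between gates (none did) and the 3 genes most like each (at least 500 UMIs in all). Other pathway, marker and neighbour genes named were chosen after their values were seen, as was the gate of 5 UMIs.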

Additional observations from a re-analysis of the deposited data

Results flagged for a closer look

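Nt5e, the gene of CD73, moved in opposite directions in different genotypes between double negative Ly49+ and double negative Ly49- cells. Its level in Ly49+ cells was 2.11 times that in Ly49- cells in Jα18-deficient mice (409 against 14 UMIs, interval 1.25 to 3.90), but 0.455 times in WT (23.8 against 52.4 CPM) and 0.114 times in CD1d-deficient mice (4.37 against 38.1 CPM, from 11 and 18 UMIs). Whether the genotypes differ was not tested, since each was 1 pool. With cells positive from 2 UMIs the ratios were 1.27, 0.422 and 0.771, and the intervals of the Jα18-deficient (0.916 to 1.79) and CD1d-deficient ratios (0.437 to 1.42) then held 1. Single cells carried much of these values, with 179 of the 409 UMIs in Jα18-deficient Ly49+ cells, 7 of 14 in Jα18-deficient Ly49- cells, 147 of 299 in WT Ly49- cells and 12 of 18 in CD1d-deficient Ly49- cells. Without the cell of 179 UMIs the Jα18-deficient ratio was 1.21, without the cell of 147 UMIs the WT ratio was 0.878, and without the cell of 12 UMIs the CD1d-deficient ratio was 0.324. Leaving out the top cell of both classes gave 2.33 in Jα18-deficient, 0.693 in WT and 0.180 in CD1d-deficient cells.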

How the results depend on the processing

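Single pools, few Art2 cells and the gate limit these results. No paired analysis was possible because the cell names carry no library number. The log2 ratio of Art2a-ps between CD1d-deficient and WT cells, -5.07, was -4.19 by the mean of cell CPM and -5.71 without the 5 top cells, and that of Adora2a between Jα18-deficient and WT cells, 1.63, was 1.36 by the mean of cell CPM. Without thinning, the share of cells differed by 21.5 percentage points for Art2a-ps (11.5 thinned) and by 16.6 for Adora2a (8.28 thinned). The log2 ratio of Entpd1 between CD1d-deficient and WT cells (0.22) turned to -0.048 without the top cell and -0.45 without the 5 top cells. The log2 ratio of Cd38 between Jα18-deficient and WT cells (0.15) turned to -0.13 by the mean of cell CPM. With genes from 20 UMIs, 3334 (2175) genes passed 2-fold for Jα18-deficient and 3514 (2314) for CD1d-deficient against WT. Genes called for Cd4+, Cd8a+, double negative Ly49+, S1pr1+ and Art2+ cells (6, 28, 12, 2 and 2) numbered 36, 95, 36, 32 and 9 by DESeq2. Without a filter the first 4 were 18, 68, 26 and 14, and without the pool term double negative Ly49+ gave 5 and S1pr1+ 1. Thinning gave 120 for Cd8a+, 29 for double negative Ly49+ and 18 for S1pr1+, the gate of 5 UMIs 88, 28 and 19, and the gate of 2 UMIs 15 for S1pr1+. With 1 pool left out the counts ran from 9 to 18 for Cd4+ (18 without WT), 31 to 36, 11 to 14, 11 to 20 for S1pr1+ (20 without WT, 14 without Jα18-deficient, 11 without CD1d-deficient) and 2 to 3. No gene of the 7 was called under any of them, the gating genes apart. Art2a-ps in Cd8a+ cells, 0.03, was -0.0016 with RLE scaling, -0.10 without the pool term, -1.51 at 2 UMIs, -1.11 thinned, -0.85 at 5 UMIs and -0.51 to 0.36 with 1 pool left out. It was -0.47 in Cd4+ cells when thinned, and in double negative Ly49+ cells -0.58 at 2 UMIs, -0.79 thinned and -0.071 to 1.69 with 1 pool left out. Left-out pools moved Adora2a in Cd4+ cells from -0.064 to 0.15, P2rx7 in S1pr1+ cells from -0.31 to 0.018, Cd38 there from -0.31 to 0.29 (0.040 without the pool term) and Entpd1 in Art2+ cells from -0.59 to 0.47. Among double negative Ly49- cells alone, Adora2a differed by -1.84 and Entpd1 by 0.10 in Art2+ cells. Those Art2+ sums held only 60 WT, 4 Jα18-deficient and 4 CD1d-deficient cells. The cause of these changes was not tested.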
